A study of Mus musculus with 5 samples.

Results

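The interferon-induced genes described here are 39 genes that cells switch on in answer to interferons, out of 27998 genes counted in each library. All 39 were in the gene table of every library. By the interferon that is best known to induce them, 28 were treated as antiviral genes of the type I response, 7 as gamma-interferon genes (Gbp2, Gbp3, Gbp5, Gbp7, Irgm1, Igtp and Cxcl9) and 4 as genes that both interferons induce (Irf1, Ifi47, Iigp1 and Cxcl10). The question was whether their high level in the late KPfC tumour lay in all of its cell compartments, and whether antiviral and gamma-interferon genes behaved alike.

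Single cells from the pancreas of untreated mice were profiled in 5 libraries, 1 for each group, by droplet sequencing of the 3' ends of transcripts with molecular identifiers (UMIs). The libraries were a normal pancreas at 60 days, an early KIC tumour at 40 days, a late KIC tumour at 60 days, a late KPfC tumour at 60 days and a late KPC tumour at 6 months. By common usage of these names, the tumour models differ in the tumour suppressor that is altered in the pancreas, with loss of the Cdkn2a locus in KIC, deletion of floxed Trp53 in KPfC and a point-mutant Trp53 in KPC. The normal, KIC and KPC mice had a mixed C57BL/6 and FVB background, and the KPfC background was C57BL/6. With 1 library per model, no difference between models can be tested, and model, strain, age, sex and library cannot be told apart. Levels are CPM, which set the summed UMIs of a pool of cells to the same total before genes are compared between pools, and a ratio divides 2 such levels. Ranges in parentheses are exact 95% intervals, which cover counting error only.

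Interferons are secreted proteins that alert cells to infection and damage. Type I interferons, such as interferon beta, act through a receptor whose signal ends in a factor complex with IRF9 that binds the interferon-stimulated response element (ISRE) in front of antiviral genes. Interferon gamma, made chiefly by T and NK cells, acts through its own receptor and the gamma-activated sequence (GAS), and induces guanylate-binding proteins, immunity-related GTPases and chemokines that call in T cells. Many genes answer to both, and IRF family factors bind ISREs without any interferon receptor.

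The stretches in front of 7 members are shown because they hold the motifs through which interferon signals are known to act. RefSeq promoter sequences of build GRCm38.p6 were found for 31 of the 39 members, each with 250 bases before and 50 after the start of the gene. The ISRE core GAAANNGAAA was present on either strand in 12 of 21 antiviral, 6 of 7 gamma-interferon and 1 of 3 dual members, or 19 of 31 in all, against 3.99% of 27025 genes. The GAS motif TTCNNNGAA was present in 6 of 21 antiviral, 3 of 7 gamma-interferon and 1 of 3 dual members, or 10 of 31 in all, against 9.55% of all genes. Neither motif was confined to 1 of the groups. Both motifs were found in 6 members and neither in 8. Each line below gives the 160 bases that end just before the start of the gene, read 5′ to 3′ on the gene's strand, with matches to either motif in capitals. The windows are chr4:156200819-156200978 on the minus strand for Isg15, chr19:34640729-34640888 on the plus strand for Ifit1 and chr12:26456453-26456612 on the minus strand for Rsad2. They are chr8:71537473-71537632 on the minus strand for Bst2, chr11:53769854-53770013 on the plus strand for Irf1, chr3:142620503-142620662 on the plus strand for Gbp2 and chr11:58199396-58199555 on the plus strand for Igtp.
Isg15: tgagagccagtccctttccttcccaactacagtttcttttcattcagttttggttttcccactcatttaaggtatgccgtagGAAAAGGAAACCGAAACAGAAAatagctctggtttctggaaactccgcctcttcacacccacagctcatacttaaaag
Ifit1: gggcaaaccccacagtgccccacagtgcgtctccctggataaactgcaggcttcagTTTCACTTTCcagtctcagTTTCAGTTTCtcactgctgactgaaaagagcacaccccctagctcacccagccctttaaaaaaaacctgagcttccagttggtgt
Rsad2: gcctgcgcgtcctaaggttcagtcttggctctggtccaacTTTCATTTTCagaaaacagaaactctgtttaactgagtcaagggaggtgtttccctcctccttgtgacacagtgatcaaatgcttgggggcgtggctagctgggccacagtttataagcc
Bst2: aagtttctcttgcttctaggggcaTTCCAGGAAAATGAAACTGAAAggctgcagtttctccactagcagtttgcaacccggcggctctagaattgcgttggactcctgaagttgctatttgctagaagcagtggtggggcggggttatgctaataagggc
Irf1: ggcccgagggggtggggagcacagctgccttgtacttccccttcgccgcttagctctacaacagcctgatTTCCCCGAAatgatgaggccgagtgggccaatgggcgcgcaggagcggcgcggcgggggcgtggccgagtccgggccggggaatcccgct
Gbp2: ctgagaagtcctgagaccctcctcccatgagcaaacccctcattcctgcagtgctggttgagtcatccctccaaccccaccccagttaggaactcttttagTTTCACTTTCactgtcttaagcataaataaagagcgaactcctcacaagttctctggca
Igtp: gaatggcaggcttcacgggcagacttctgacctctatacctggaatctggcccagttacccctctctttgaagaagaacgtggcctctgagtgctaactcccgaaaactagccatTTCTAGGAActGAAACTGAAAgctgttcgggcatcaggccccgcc
Isg15 held 3 overlapping ISRE cores, beginning 78, 72 and 66 bases before the start, and Ifit1 held 2, at 104 and 85 bases. Rsad2 and Gbp2 held a single core each, at 120 and 59 bases. Bst2 held ISRE cores at 130 and 124 bases, the first overlapping a GAS match at 136, and Igtp held a GAS match at 45 and an ISRE core at 34 bases. Irf1 held a GAS match alone, 90 bases before the start. A match in these letters is a description of the sequence and shows no binding.

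After a filter on genes and mitochondrial UMIs, 2386, 3529, 836, 2933 and 1034 cells were kept in normal pancreas, early KIC, late KIC, late KPfC and late KPC. Their median depths were 4224.5, 1776, 9331.5, 7592 and 1957.5 UMIs per cell, and pairs of libraries shared 1 to 17 cell barcodes. Cells were clustered without the interferon genes and clusters were named from marker genes, so the names are rebuilt ones. Macrophage-like cells made up 1.97% of the normal library, 21.7% and 35.4% of the early and late KIC ones, and 48.1% and 50.1% of the late KPfC and late KPC ones. Of 13 macrophage markers, 10 to 13 were highest in these cells in each library, and the same held for 10 to 13 of 13 fibroblast markers in fibroblast-like cells. The 4 of 10 monocyte markers that were highest in the cluster called monocyte-like make that name the weakest. Late KPfC cells were male (1 Xist UMI), early KIC and late KPC cells were female, and normal pancreas and late KIC held cells of both sexes, so that at least 2 mice contributed to each of these libraries.

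Over all kept cells, the 39 members took 0.0683% of UMIs in normal pancreas, 0.201% in early KIC, 0.0909% in late KIC, 0.256% in late KPfC and 0.132% in late KPC. Late KPfC was the highest library by this share and early KIC was next. By compartment the order was not the same everywhere. In macrophage-like cells the 28 antiviral genes summed to 3536 CPM (3278 to 3808) in normal pancreas, 2195 in early KIC, 1609 in late KIC, 2327 in late KPfC and 1128 in late KPC. In fibroblast-like cells they summed to 2074, 2680, 2584, 3966 and 2462 CPM in the same order, with late KPfC the highest. In dendritic-like cells the sums were 886 CPM in normal pancreas, 1241 in early KIC, 1588 in late KIC and 2456 in late KPfC, and again late KPfC was highest. T or NK-like cells gave 209 CPM in normal pancreas, 598 in early KIC, 1610 in late KPfC and 322 in late KPC. Epithelial or tumour cells gave 1105 CPM in early KIC, 211 in late KIC, 522 in late KPfC and 451 in late KPC, so that early KIC stood above late KPfC. The mesothelial-gene clusters gave 3543 CPM in normal pancreas, 6561 in early KIC and 6110 in late KPfC, the last 2 with overlapping intervals. Late KPfC was thus the highest of the libraries compared in fibroblast-like, dendritic-like and T or NK-like cells, but not in macrophage-like, mesothelial-gene or epithelial cells. In dendritic-like cells Ifitm3 alone held 1379 of the 1824 antiviral UMIs of late KPfC and 237 of the 387 of late KIC. The lead over late KIC there rested on this gene, and the other antiviral genes together were no higher in late KPfC than in late KIC.

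**Figure D1:**
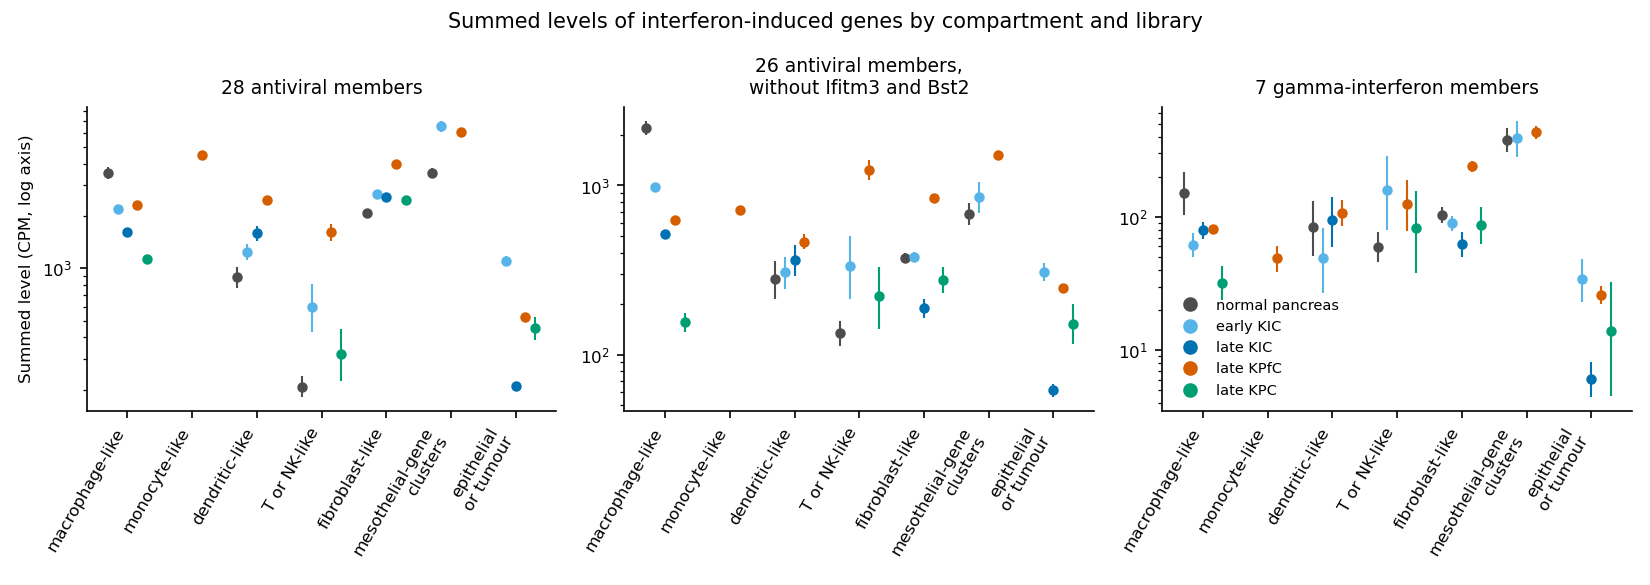
Summed level (CPM, log axis) of the 28 antiviral members, of 26 antiviral members without Ifitm3 and Bst2, and of the 7 gamma-interferon members, by compartment; points are libraries with at least 30 cells, and lines are exact 95% intervals. Late KPfC is the highest point in fibroblast-like cells in each panel, whereas normal pancreas is the highest in macrophage-like cells.

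Ifitm3 and Bst2, which code for proteins that block virus entry and release at membranes, held most antiviral UMIs. Without this pair the 26 remaining antiviral genes summed in macrophage-like cells to 2195, 975, 519, 626 and 155 CPM from normal pancreas to late KPC. Normal and early KIC macrophages then both stood above those of late KPfC. In fibroblast-like cells the 26 genes summed to 374, 378, 187, 840 and 277 CPM, and late KPfC kept its place. In epithelial or tumour cells they summed to 309 CPM in early KIC, 61.5 in late KIC, 247 in late KPfC and 152 in late KPC.

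Macrophage-like cells numbered 47 in normal pancreas, 767 in early KIC, 296 in late KIC, 1411 in late KPfC and 518 in late KPC. They fell into clusters that were mostly of 1 library. Late KIC cells lay mostly in clusters cm11 and cm15, late KPC cells in cm4, cm6 and cm17, early KIC cells in cm1, cm5, cm7 and cm16, and late KPfC cells in 8 others from cm2 to cm14. A gene was counted as measured in a comparison with at least 20 UMIs over both libraries, and as higher or lower at a ratio of at least 2. Against late KIC, 14 of 35 measured members stood higher in late KPfC and 1 stood lower (median log2 ratio 0.82). Among all 10926 genes measured in this comparison 10.7% were higher and 6.23% lower, and the median was 0.03. Against late KPC, 25 of 35 members were higher and 1 was lower (median 1.40), where 14.5% of all genes were higher and 9.7% lower. The late KPfC pool held 12506548 UMIs and the late KPC pool 1499433. Several members reached the minimum of UMIs through late KPfC alone, which favoured such calls. Examples are Ifit1 with 158 against 0 UMIs, Rsad2 with 329 against 2 and Irf7 with 314 against 1. With each cell thinned to 1000 UMIs fewer members were measured, and 9 of 21 were higher than in late KIC and 15 of 21 than in late KPC.

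Against early KIC, 9 of 35 members were higher and 4 were lower in late KPfC macrophages (median log2 ratio 0.40), with 12.5% of all genes higher and 8% lower. Against normal pancreas, 2 were higher and 13 were lower (median -0.70), with 14% of all genes higher and 12.7% lower. The all-gene median was -0.25 there. The 47 normal macrophages set this comparison, and 24 of them lay in cluster cm5 with 196 early KIC cells.

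Among the antiviral members, Isg15, a ubiquitin-like protein that is attached to other proteins, had 914 CPM in normal, 334 in early KIC, 250.3 in late KIC, 248 in late KPfC and 38 in late KPC macrophages. Late KPfC and late KIC did not differ beyond counting error (ratio 0.991, 0.909 to 1.08), and late KPC stood far below, 6.53-fold lower (5.03 to 8.64). Usp18, the protease that removes ISG15 and damps the type I receptor, had 1, 2, 0, 45 and 0 UMIs from pools of unlike size, or 5.08 CPM (0.129 to 28.3) in normal, 1.32 in early KIC, 0 in late KIC, 3.6 in late KPfC and 0 in late KPC. Late KPfC was 2.94-fold higher than late KIC with its 0 UMIs set at 3. Ifit1, which binds foreign RNA caps, had 305, 70.2, 10.2, 12.6 and 0 CPM. Its level in normal macrophages was 24.1-fold (17.6 to 32.7) that in late KPfC, and late KPfC stood 6.31-fold above late KPC with its 0 UMIs set at 3. Ifit3, a partner of Ifit1, was low in each library, with 1, 4, 0, 29 and 0 UMIs.

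The 2'-5' oligoadenylate synthetase family senses double-stranded RNA and activates RNase L, although the OAS-like protein Oasl1 lacks the synthetase activity. Of the 5 family members measured, 4 were higher in late KPfC macrophages than in late KIC, and 5 of 5 were higher than in late KPC. Oasl1 was the exception against late KIC. Its levels were 264 CPM in normal, 164 in early KIC, 34.7 in late KIC, 34.9 in late KPfC and 6 in late KPC macrophages, falling into a high pair, a middle pair and late KPC. Oasl2 had 20.3, 5.3, 3.68, 12.5 and 1.33 CPM, and late KPfC stood 3.39-fold (1.74 to 7.56) above late KIC.

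Among the sensors, Zbp1, which binds Z-form nucleic acid, had 15.2, 9.27, 7.76, 27.1 and 7.34 CPM. Late KPfC was the highest, 3.49-fold (2.2 to 5.88) above late KIC and 3.69-fold (2.04 to 7.47) above late KPC. Ifih1, the cytosolic RNA sensor MDA5, went the other way, with 178 CPM in normal, 58.3 in early KIC, 49 in late KIC, 34.7 in late KPfC and 7.34 in late KPC macrophages. Late KPfC was below the first 3 of these and 4.73-fold (2.62 to 9.55) above late KPC.

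Of the transcription factors, Irf7, which amplifies type I interferon production, had 20.3, 4.64, 5.31, 25.1 and 0.667 CPM. Late KPfC stood 4.73-fold (2.73 to 8.98) above late KIC, and the single late KPC UMI left its ratio of 37.6 with a wide interval (6.71 to 1492). Irf1, which both interferons and inflammatory signals induce, had 137, 56.3, 14.3, 21.4 and 10.7 CPM. Here normal macrophages were the highest, 6.4-fold (4.14 to 9.52) above late KPfC.

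The membrane proteins differed less. Ifitm3 had 1229, 1137, 1015, 1564 and 904 CPM, with late KPfC highest and 1.54-fold (1.48 to 1.61) above late KIC. Bst2, or tetherin, had 112, 82.1, 75.1, 137 and 70 CPM, a ratio of 1.83 (1.57 to 2.14) to late KIC. Neither reached the 2-fold mark against any other library in these cells.

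Rsad2, or viperin, which makes a chain-terminating nucleotide, was the 1 member lower in late KPfC than in late KIC macrophages. It had 229, 160.3, 55.9, 26.3 and 1.33 CPM, so that late KPfC stood 2.13-fold (1.73 to 2.6) below late KIC and 6.09-fold (5.14 to 7.22) below early KIC. Isg20, an exonuclease, had 10.2, 6.62, 2.45, 7.04 and 1.33 CPM, and the normal and late KPfC levels overlapped in their intervals. Rtp4, a receptor-trafficking protein induced by interferon, had 45.7, 23.8, 2.04, 15.3 and 0 CPM, 7.48-fold (3.15 to 23.3) higher in late KPfC than in late KIC. Ifi35 was flat, at 25.4, 22.5, 29, 29 and 27.3 CPM. Xaf1, a pro-apoptotic partner of XIAP, was the 1 member higher in late KPC than in late KPfC, at 19.3 against 8.8 CPM (2.2-fold, 1.41 to 3.34), with 10.2, 11.9 and 5.31 CPM in the first 3 libraries.

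The gamma-interferon members of macrophages differed less between late KPfC and late KIC. Gbp2, a GTPase that coats and breaks pathogen vacuoles, had 25.4, 11.9, 14.3, 21.2 and 5.34 CPM, a ratio of 1.48 (1.04 to 2.17) to late KIC and 3.97 (1.99 to 9.29) to late KPC. Gbp7, of the same family, had 30.5, 25.8, 35.1, 30 and 15.3 CPM, with late KPC lowest. Of 4 guanylate-binding proteins none was 2-fold higher than in late KIC, and 3 were higher than in late KPC. Irgm1, a regulatory immunity-related GTPase, had 10.2, 3.97, 1.23, 5.28 and 2.67 CPM, and its ratio of 4.31 to late KIC rested on 3 late KIC UMIs (1.41 to 21.4). Ifi47, another GTPase of that family, is counted with the genes that both interferons induce and not with the gamma-interferon members. It had 10.2, 2.65, 4.08, 11.6 and 3.33 CPM, 2.84-fold (1.5 to 6.05) higher in late KPfC than in late KIC.

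The chemokines attract T cells through the receptor CXCR3. Cxcl10 had 330.2 CPM in normal, 103 in early KIC, 122 in late KIC, 374 in late KPfC and 21.3 in late KPC macrophages. Late KPfC and normal macrophages overlapped in their intervals, and late KPfC stood 3.06-fold (2.72 to 3.45) above late KIC and 17.5-fold (12.4 to 25.6) above late KPC. Cxcl9, the chemokine that depends most on interferon gamma, was close to absent, with 2, 3, 0, 14 and 2 UMIs. Cxcl9, Ifit2, Ifi44 and the GTPase Iigp1 were the 4 members not measured in macrophages against late KIC.

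**Figure D2:**
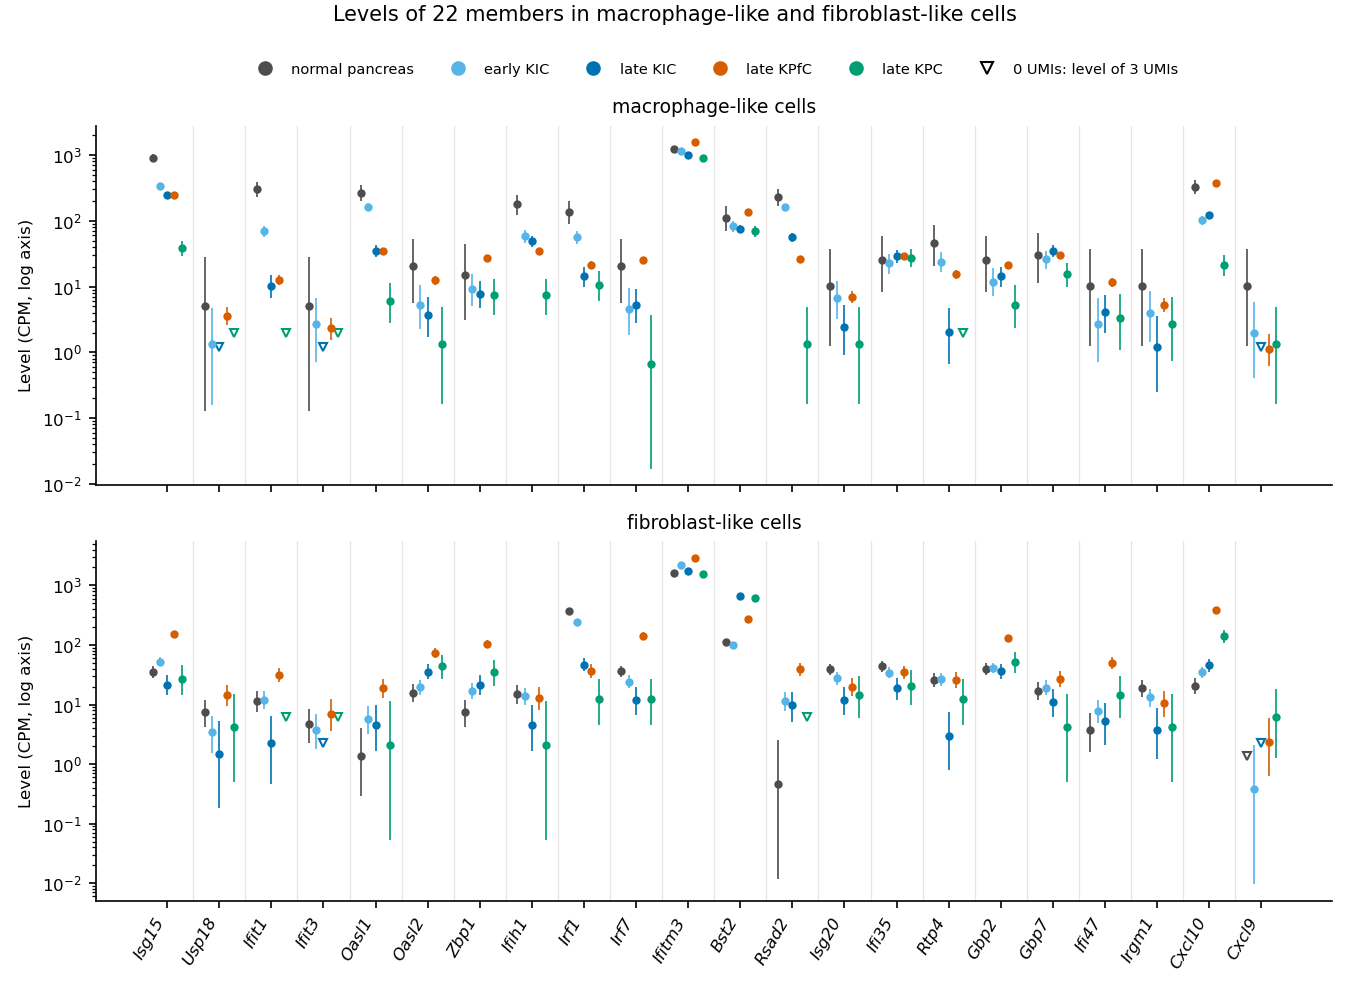
Levels (CPM, log axis) of the 22 members chosen by role group in macrophage-like and fibroblast-like cells of the 5 libraries; lines are exact 95% intervals, and open triangles stand for 0 UMIs at the level of 3 UMIs. Isg15, Ifit1, Oasl1 and Rsad2 are highest in normal macrophages, and Isg15, Irf7 and Cxcl10 are highest in late KPfC fibroblasts.

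Within late KPfC the antiviral level varied between macrophage clusters, from 1087 CPM in cm9 (179 cells) to 3788 CPM in cm8 (185 cells). Early KIC clusters ranged as widely, from 1386 CPM in cm1 to 3642 CPM in cm5. The 3 late KPC clusters ran from 818 to 1641 CPM. The gamma-interferon sum did not follow the antiviral one, at 115 CPM in cm9 and 78.5 CPM in cm8. The monocyte-like cluster cm0, with 343 cells in late KPfC and at most 5 in any other library, had 4506 antiviral and 48.8 gamma-interferon CPM. Its Ifitm3 level was 3652 CPM, its Isg15 level 285 CPM and its Cxcl10 level 196 CPM, whereas Gbp7 and Gbp3 had 14.5 and 8.71 CPM. No other library held enough such cells for a comparison.

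Fibroblast-like cells numbered 402, 1352, 82, 121 and 102 from normal pancreas to late KPC, at median depths of 5152, 1726, 14538.5, 12556 and 3344.5 UMIs. Late KPfC cells lay mostly in cluster cs2 (57 cells), late KIC cells in c14 (47) and cs3, late KPC cells in c14 (48) and cs4, and normal and early KIC cells in c16, c6 and c1. Clusters named cs, like the mesothelial-gene clusters cs0 and cs1 described further on, came from clustering mesothelial clusters again. The fibroblast-like pools of the libraries were thus made of different clusters, and the part of this in the levels was not tested. Against late KIC, 25 of 30 measured members were higher in late KPfC and 1 was lower (median log2 ratio 2.04), with 10.7% of all genes higher, 5.73% lower and an all-gene median of 0.11. Against late KPC, 22 of 30 were higher and 2 were lower (median 1.56), with 16.5% of all genes higher and 6.4% lower. Several members called higher there reached the minimum of UMIs through late KPfC alone, which favoured such calls. Examples are Ifit1 with 54 against 0 UMIs, Oas1a with 43 against 2 and Ifi44 with 27 against 0. Against early KIC, 17 of 32 were higher and 2 lower (median 1.40), where 12.1% of all genes were higher and 14.2% lower. Against normal pancreas, 15 of 33 were higher and 3 lower (median 0.85), where 15.4% of all genes were higher and 14.7% lower. With cells thinned to 1000 UMIs 5 members were left against late KIC, of which 3 were higher, and with at least 50 UMIs 15 of 20 were higher.

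Isg15 had 35.2, 52.1, 21.6, 152 and 27 CPM in fibroblasts of normal pancreas, early KIC, late KIC, late KPfC and late KPC. Late KPfC stood above the other 4, 7.05-fold (4.79 to 10.7) over late KIC. Irf7 had 36.1, 24.2, 11.9, 143 and 12.5 CPM, 12-fold (7.26 to 21.4) over late KIC and 3.96-fold (3.06 to 5.18) over normal pancreas. Zbp1 had 7.41, 17, 21.6, 104 and 35.3 CPM, again with late KPfC alone at the top. Cxcl10 had 20.8, 34.8, 45.3, 386 and 139 CPM, 8.5-fold (6.54 to 11.2) over late KIC and 2.77-fold (2.15 to 3.61) over late KPC. Isg15, Irf7, Zbp1 and Cxcl10 were chosen for fibroblasts after their values were seen, and so were Irf1, Ifi47 and Rsad2.

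The members named by abundance were Ifitm3, Bst2, Gbp2 and Gbp7. Ifitm3 had 1587, 2202, 1728, 2857 and 1574 CPM, 1.65-fold (1.57 to 1.74) higher in late KPfC than in late KIC. Bst2 did not follow it. It had 113 CPM in normal and 101 in early KIC, 669 in late KIC, 269 in late KPfC and 611 in late KPC fibroblasts, so that late KPfC stood 2.48-fold (2.22 to 2.78) below late KIC and 2.27-fold (1.95 to 2.63) below late KPC, but 2.39-fold (2.04 to 2.81) above normal.

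Gbp2 had 39.8, 41.6, 36.4, 130.3 and 52 CPM in these fibroblasts, 3.58-fold (2.62 to 4.98) higher in late KPfC than in late KIC. Gbp7 had 17.1, 19.3, 11.2, 26.9 and 4.16 CPM, with late KPfC highest but overlapping early KIC and normal in its interval. Ifi47 had 3.71, 7.93, 5.2, 50.2 and 14.6 CPM, 9.66-fold (4.49 to 24.7) over late KIC. Irf1 ran the other way, with 373, 244, 46.8, 36.8 and 12.5 CPM, so that late KPfC stood 10.1-fold (7.84 to 13.3) below normal and did not differ from late KIC beyond counting error. Rsad2 had 1, 30, 13, 67 and 0 UMIs, and 1 late KPfC fibroblast held 55 of the 67.

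Genes that tissue dissociation and other stress switch on within minutes differed between the libraries too. The 16 immediate-early and heat-shock genes, such as Fos, Jun, Egr1 and Atf3, summed in fibroblasts to 19660 CPM in normal pancreas, 17827 in early KIC, 11641 in late KIC, 10173 in late KPfC and 10897 in late KPC. In macrophages they summed to 12436, 6736, 6673, 8531 and 7351 CPM. Normal pancreas was highest in both compartments, as it was for Irf1, and early KIC stood second in fibroblasts alone. In epithelial or tumour cells they summed to 11635 CPM in early KIC, 6984 in late KIC, 6650 in late KPfC and 12824 in late KPC. In the mesothelial-gene clusters, described further on, they summed to 15514 CPM in normal pancreas, 4425 in early KIC and 17877 in late KPfC. Their part in the levels of the members was not tested. That list was written after the members' values were seen.

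Epithelial or tumour cells numbered 356 in early KIC, 281 in late KIC, 491 in late KPfC and 62 in late KPC, and 9 in normal pancreas, too few to compare. The late KIC cells lay mostly in cluster c15 (242 cells), which carried mesenchymal tumour markers, while 39 late KIC, 481 late KPfC and 61 late KPC cells shared cluster c3, and early KIC cells lay in c10. Against late KIC, 23 of 29 measured members were higher in late KPfC and none was lower (median log2 ratio 1.66), with 16.2% of all genes higher and 9.45% lower. Against late KPC, 5 of 28 were higher and 4 lower (all genes 9.72% higher and 13.2% lower). Each of the 5 reached the minimum of UMIs through late KPfC alone, which favoured such calls, and late KPC had at most 3 UMIs of any. For 11 others late KPC had 0 UMIs, and whether they differed 2-fold could not be told. Against early KIC, 7 of 31 were higher and 9 lower, with 13% of all genes higher and 20.3% lower. With cells thinned to 1000 UMIs only 4 members were left against late KIC and none of them was 2-fold higher. Within cluster c3 alone the antiviral sum was 260 CPM in late KIC, 505 in late KPfC and 456 in late KPC.

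Ifitm3 had 733 CPM in early KIC, 115 in late KIC, 213 in late KPfC and 208 in late KPC epithelial or tumour cells. Early KIC stood 3.44-fold (3.13 to 3.78) above late KPfC, which stood 1.86-fold (1.71 to 2.03) above late KIC. Bst2 had 62.3, 34.8, 62 and 91.4 CPM in these 4 libraries, with late KPC highest. Gbp2 had 4.53, 1.58, 10.3 and 8.31 CPM, 6.48-fold (3.48 to 13.2) higher in late KPfC than in late KIC. Irgm1 had 17, 2.24, 5.89 and 5.54 CPM, highest in early KIC and 2.62-fold (1.45 to 4.94) higher in late KPfC than in late KIC.

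Isg15, Rsad2 and Cxcl10 were added after their values in tumour cells were seen. Isg15 had 22.6, 3.96, 36.2 and 2.77 CPM, 9.15-fold (6.24 to 13.9) higher in late KPfC than in late KIC. Rsad2 had 21.5, 0.66, 18.9 and 0 CPM, and early KIC and late KPfC overlapped in their intervals. Cxcl10 was no higher in late KPfC than in late KIC, at 21.7 against 22.2 CPM, and late KPC had 60.9 CPM. The counts against late KIC depended in part on 3 of the 491 late KPfC cells, which held 25.7% of the UMIs of the 26 antiviral genes, among them 91 of 125 Rsad2 UMIs and 70 of 240 Isg15 UMIs. Without cells of this kind, 17 of 25 measured members were higher than in late KIC.

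Dendritic-like cells lay in 1 cluster, with 34, 133, 32 and 103 cells in normal pancreas, early KIC, late KIC and late KPfC, and 27 in late KPC. Only 10 members were measured. Of these, 1 was higher in late KPfC than in late KIC (all genes 11.5% higher, 7.32% lower), 3 were higher than in early KIC (15.9% and 6.16%) and 5 were higher than in normal pancreas (23.8% and 7.65%). None was 2-fold lower in these comparisons. Ifitm3 had 563, 851, 972 and 1857 CPM in the first 4 libraries, highest in late KPfC by 1.91-fold (1.66 to 2.2) over late KIC. Bst2 had 44.3, 84.4, 254 and 133 CPM, highest in late KIC as in fibroblasts. Gbp2 had 17.7, 28.1, 53.3 and 55.2 CPM, with late KIC and late KPfC overlapping. Gbp3 had 3, 3, 3 and 12 UMIs, too few to compare.

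T or NK-like cells numbered 228, 34, 29, 41 and 93 from normal pancreas to late KPC. Against late KPC, 4 of 4 measured members were higher in late KPfC (all genes 19.3% higher, 10.9% lower), and against early KIC 3 of 4 (13.5% and 9.6%). These calls rest on few UMIs. Each called member reached the minimum of UMIs through late KPfC alone, which favoured such calls. Late KPC had at most 7 UMIs of any of them, and early KIC at most 4. The intervals of Bst2 against late KPC (0.966 to 6.24) and of Cxcl10 against early KIC (0.688 to 8.17) included 1. Those of the other calls lay above 1. With cells thinned to 1000 UMIs no member was measured in either comparison, and with at least 50 UMIs over both libraries the counts were 1 and 0. Without the cells of very many antiviral UMIs they were 2 of 3 and 2 of 4. Against normal pancreas 10 of 12 were higher, but so were 43.5% of all genes, with 5.05% lower, and 47.2% of the UMIs of normal T or NK-like cells were acinar secretory transcripts, against 0.0176% in late KPfC. Isg15 had 23.5, 29.2, 53.5, 266 and 27.6 CPM, 9.64-fold (3.1 to 48.4) higher in late KPfC than in late KPC. Ifitm3 had 53.9, 219, 46.3, 227 and 36.8 CPM, so that early KIC and late KPfC stood together. Gbp7 had 10, 6, 11, 6 and 2 UMIs and Igtp 18, 1, 7, 5 and 4, too few to order. Of the UMIs of the 26 antiviral genes, 2 of the 41 late KPfC cells held 50%, and without them the 28 antiviral genes summed to 887 CPM, still the highest of the 4 libraries compared.

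The clusters rich in mesothelial genes were compared by cluster, because the late KPfC cluster cs1 (62 cells) had more fibroblast than mesothelial markers among its leading genes. The other, cs0, held 40 normal and 37 early KIC cells. Against early KIC, 6 of 27 measured members were higher in cs1 and 1 was lower (all genes 15.6% higher, 10.9% lower), and against normal pancreas 10 were higher and 2 lower (11.6% and 11.3%). Ifitm3 had 2076 CPM in normal, 4171 in early KIC and 4277 in late KPfC. Bst2 had 786, 1536 and 321 CPM, lowest in late KPfC, 4.79-fold (3.93 to 5.83) below early KIC. Gbp2 was flat, at 246, 245 and 246 CPM. Gbp3 had 36.3, 36.3 and 67 CPM, with overlapping intervals. Isg15, added after its values were seen, had 40.3, 72.7 and 307 CPM, 4.22-fold (2.11 to 9.89) higher in late KPfC than in early KIC. The immediate-early and heat-shock genes were also higher in late KPfC than in early KIC in these clusters, at 17877 against 4425 CPM, and their part in this difference was not tested.

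Antiviral and gamma-interferon members were then set side by side in the late tumours. In macrophages, 11 of 26 measured antiviral members were higher in late KPfC than in late KIC (median log2 ratio 0.90), but 1 of 6 gamma-interferon members was (median 0.20). The share over all genes was 10.7% there, so that 1 of 6 lies near the background. With cells thinned to 1000 UMIs the counts were 7 of 16 and 0 of 3 (medians 0.95 and -0.52). The gamma-interferon sum did not differ beyond counting error, at 81.6 CPM in late KPfC against 79.2 in late KIC (ratio 1.03, 0.882 to 1.21). In fibroblasts, 17 of 21 antiviral members (median 2.07) and 5 of 5 gamma-interferon members (median 1.62) were higher, where 10.7% of all genes were, and the gamma-interferon sum was 240 against 62.4 CPM (ratio 3.84, 3.03 to 4.91). In epithelial or tumour cells, 18 of 22 (median 2.07) and 4 of 4 (median 2.04) were higher, where 16.2% of all genes were, with sums of 26 and 6.07 CPM (ratio 4.28, 3.07 to 6.06).

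Against late KPC, gamma-interferon members of macrophages were higher in 4 of 6 cases (median 1.32) and antiviral members in 18 of 26 (median 1.74). Of all genes 14.5% were higher there. Fibroblasts gave 4 of 5 and 14 of 21, where 16.5% of all genes were higher. In both compartments several called antiviral members reached the minimum of UMIs through late KPfC alone, as said above. In tumour cells none of 4 gamma-interferon members was higher, where 9.72% of all genes were, and for 2 of the 4 late KPC had 0 UMIs. The 4 members that both interferons induce summed in macrophages to 478, 164, 141, 407 and 36 CPM from normal pancreas to late KPC, and Cxcl10 held most of this sum in each library. In fibroblasts they summed to 426, 315, 103, 505 and 177 CPM, where Irf1 held most of the normal and early KIC sums and Cxcl10 most of the late KPfC and late KPC ones. The separation of the groups in macrophages rests on few gamma-interferon genes, and the difference between compartments was not tested.

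**Figure D3:**
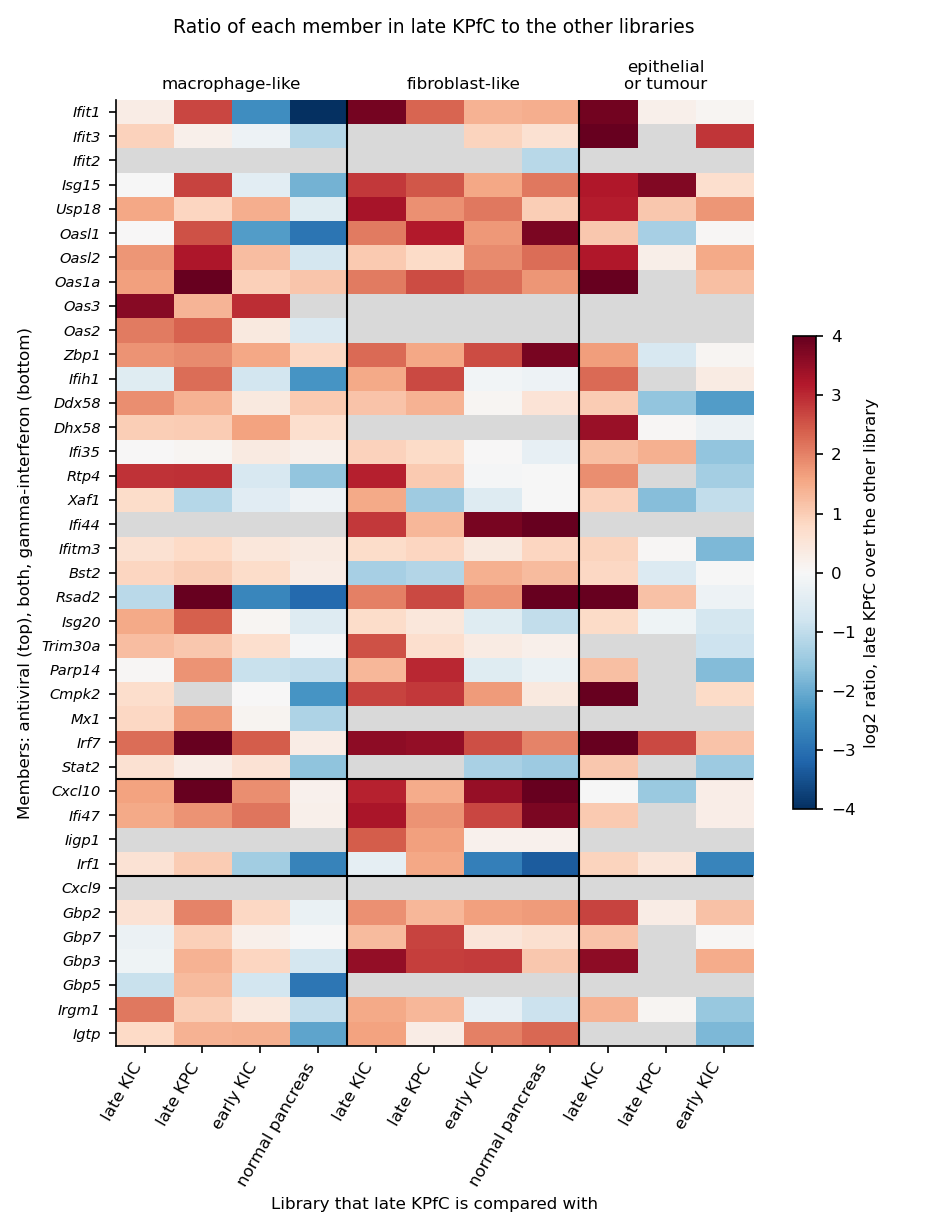
Log2 ratio of each of the 39 members in late KPfC to the library named below, in 3 compartments; grey marks members not measured or whose ratio to 0 UMIs could not be told. Most members are red against late KIC in fibroblast-like and epithelial cells, and Ifit1, Rsad2, Oasl1 and Irf1 are blue against normal pancreas in macrophage-like cells.

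The other parts of the pathway were taken from 4 lists. Of 13 ligands and receptors, 6 were measured in macrophages against late KIC, and none was higher and 1 lower in late KPfC. The lower one was Ifnb1, the interferon beta gene, with 188 CPM in normal, 24.5 in early KIC, 7.76 in late KIC, 2.24 in late KPfC and 0 in late KPC macrophages. That order, from 37, 37, 19, 28 and 0 UMIs, runs from normal pancreas down and places late KPfC next to last. The 37 normal UMIs came from 9 of 47 cells. The monocyte-like cells of late KPfC held 13 further Ifnb1 UMIs (7.55 CPM). Over all kept cells Ifnb1 had 2.84, 5.18, 1.72, 1.62 and 0 CPM, so that early KIC was highest there and late KIC and late KPfC were about equal. Ifng was nearly undetected, with 10 UMIs in all cells of normal pancreas and at most 1 in any other library, and Ifna1, Ifna2 and Ifna4 had none. The receptor gene Ifnar1 had 50.8, 45, 34.3, 28.6 and 44 CPM in macrophages, and Ifngr1 had 107, 109, 182, 112 and 143 CPM.

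Of 17 signalling genes, 2 of 16 measured were higher in late KPfC than in late KIC macrophages, 4 of 11 in fibroblasts and 5 of 14 in epithelial or tumour cells, and none was lower. Over all genes 10.7% were higher in macrophages, 10.7% in fibroblasts and 16.2% in epithelial or tumour cells, so that the 2 of 16 lies near the background. Of 28 other antiviral-type genes, 10 of 24 measured were higher in macrophages, 9 of 19 in fibroblasts and 12 of 20 in epithelial or tumour cells, with 1, 0 and 1 lower. Of 21 other gamma-interferon genes, 2 of 15 were higher in macrophages, again near the background. Another 3 of the 15 were lower there, where 6.23% of all genes were lower. In fibroblasts 8 of 9 were higher, and in epithelial or tumour cells 5 of 8 were higher and 1 lower.

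Each cell was also thinned to 1000 UMIs, to compare cells of unlike depth. The share of macrophages with at least 1 UMI of the 28 antiviral genes was 83.0% (69.2 to 92.4) in normal pancreas, 75.7% in early KIC, 65.9% in late KIC, 79.4% (77.2 to 81.5) in late KPfC and 55.7% in late KPC. Before thinning it was 100%, 88.3%, 97.3%, 99.3% and 77.8%. In fibroblasts the thinned share was 84.1%, 89.6%, 86.6%, 95.9% (90.6 to 98.6) and 76.8%. Red cells, which should lack most of these transcripts, gave 19.4% in normal pancreas, 38% in late KIC, 56.3% in late KPfC and 36.8% in late KPC. For Ifitm3 alone, 65.3% of late KPfC macrophages had a UMI against 13.6% of its red cells. For Isg15, 16.6% of late KPfC macrophages had a UMI and 18.4% of its red cells, and red cells had the higher Isg15 level, at 433 against 248 CPM. Rsad2 (239 CPM) and Isg20 (268 CPM) also stood higher in late KPfC red cells than in its macrophages. Isg15, Rsad2 and Isg20 held 223, 123 and 138 of the 655 antiviral UMIs of late KPfC red cells. Red cells therefore give no measure of free RNA for these genes, or for the share over the 28 antiviral genes, which includes them. The part of free RNA in these levels was not tested.

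Few cells held very many antiviral UMIs. With Ifitm3 and Bst2 left out, 5 of 47 normal macrophages had at least 8 antiviral UMIs among 1000, and so had 16 of 767 in early KIC, 1 of 296 in late KIC, 4 of 1411 in late KPfC and none in late KPC. These cells held 43.5% of such UMIs in normal macrophages, 16.5% in early KIC and 2.76% in late KPfC. Without them the 28 antiviral genes summed to 2791 CPM in normal, 2037 in early KIC, 1589 in late KIC and 2308 in late KPfC macrophages, so that late KPfC then stood above early KIC, as it did with them, and below normal pancreas.

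**Figure D4:**
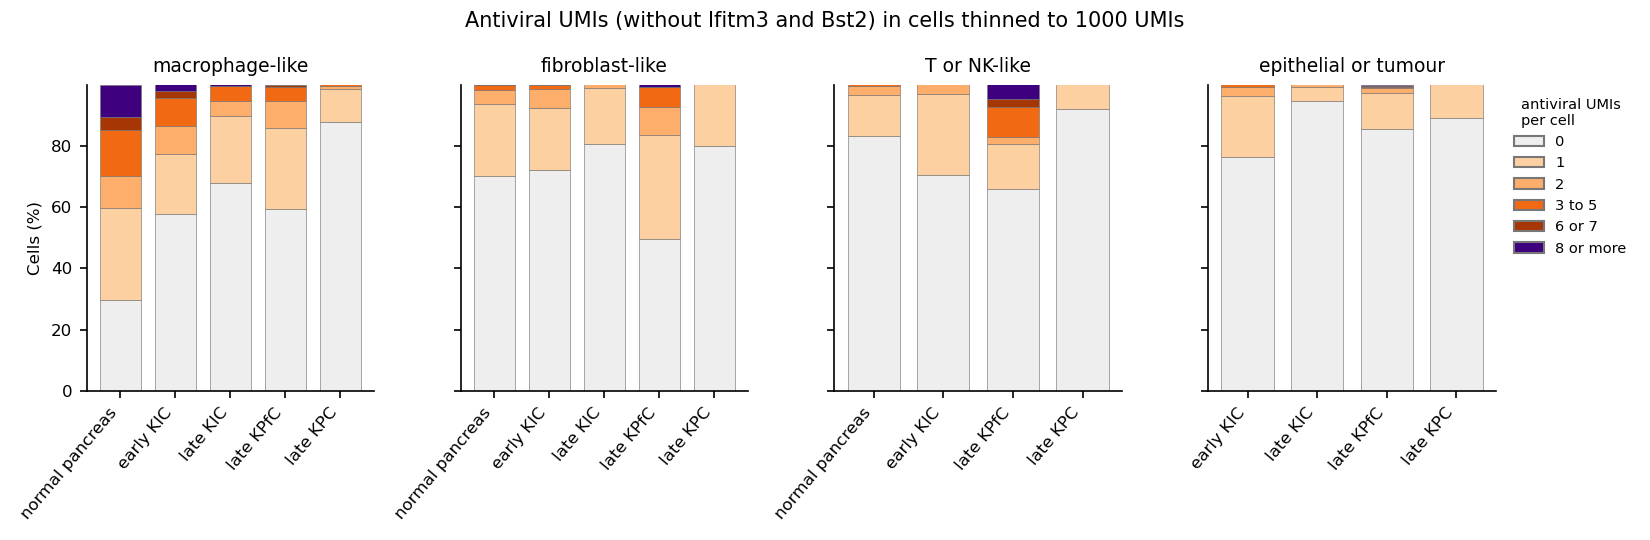
Share of cells (%) by the number of UMIs of 26 antiviral members (without Ifitm3 and Bst2) after thinning each cell to 1000 UMIs, in 4 compartments and the libraries with at least 30 cells. Cells with 8 or more such UMIs are 5 of 47 macrophages in normal pancreas and 2 of 41 T or NK-like cells in late KPfC, and are rare elsewhere.

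Late KIC held cells of both sexes, which allowed a comparison within 1 library. Its macrophages with Xist transcripts only (94 cells) had an antiviral sum of 1518 CPM (1433 to 1607). Those with Y-linked transcripts only (122 cells) had 1760 CPM (1680 to 1842), which is higher beyond counting error. Its fibroblasts had 2582 and 2561 CPM. Its gamma-interferon sum in fibroblasts was 42.8 CPM (28.9 to 61.1) in 43 Xist-only cells and 87.7 CPM (64.5 to 117) in 31 Y-only cells. In its epithelial or tumour cells the antiviral sums were 221 CPM in 152 Xist-only and 182 CPM in 78 Y-only cells, and the sums of the 4 dual members were 52.1 (45.1 to 59.8) and 17 CPM (12.3 to 22.9). Late KPfC, at 48 CPM, lay within the interval of the Xist-only cells for the dual members. Xist-only and Y-only cells come from different mice. Late KPfC, whose cells were male, stood above both at 2327 CPM for antiviral genes in macrophages, and at 3966 antiviral and 240 gamma-interferon CPM in fibroblasts. The part of sex in these levels was not tested. Guanylate-binding proteins, IFIT, OAS and immunity-related GTPases are families of similar genes, and reads shared between near-identical copies make their single values less certain than those of Isg15, Rsad2 or Cxcl10.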

How the data were processed

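UMI counts per gene and cell were taken from the deposited matrices, which the submitters' processing notes link to Cell Ranger 2.1.1 and build GRCm38. Which annotation release was used is not stated there. The values are raw counts, deposited by the authors as 1 matrix per library. Barcodes were kept from 200 genes and 500 UMIs up, where mitochondrial UMIs made up no more than 20%. Doublets were not removed, because no caller was run. Cells were clustered with scanpy 1.11.5 (2000 variable genes, 30 components, 15 neighbours, Leiden resolution 1) without 116 interferon genes. Macrophage and mesothelial clusters were clustered again. Clusters were named from marker genes, by naming rules set after the clusters were seen.

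UMIs were summed over the cells of a compartment and library and divided by the total of those cells (CPM). Compartments with at least 30 cells in both libraries were compared. A gene counted as measured with at least 20 UMIs over both libraries, and as higher or lower at a ratio of at least 2. A member could reach this minimum through 1 library alone, which favoured a call of higher in that library. The shares over all genes rest on the same minimum. No p-value was computed, since each group is 1 library. Intervals are exact (Poisson for levels, binomial for ratios and Clopper-Pearson for shares) at the 95% level. A ratio to 0 UMIs was set against 3 UMIs and is given as a bound, which also enters the medians. This bound leaves out the counting error of the other library, so the exact interval can start below it. The ratio and interval code was tested on simulated data.

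The members and lists were chosen with earlier results of these data known. Genes named with values were, in macrophages, the 2 members of each role group with the most UMIs and members at least 2-fold lower in late KPfC than in late KIC or late KPC. In other compartments they were the 2 antiviral and 2 gamma-interferon members with the most UMIs, and other genes are said to be added. Alternatives covered the filter on cells, the clustering, the scaling, the depth of cells, the minimum of UMIs, the call rule, the sex of the cells and, added after seeing the data, cells with at least 8 antiviral UMIs.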

Additional observations from a re-analysis of the deposited data

How the results depend on the processing

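Each count of members higher in late KPfC was recomputed under 12 alternatives. Of 384 alternative counts for 35 results, 313 stayed within 1.5 times the value reported and 71 did not. Of 359 medians 345 moved by less than the limit and 14 by more, and no median past the 2-fold mark changed sign. Of 49 alternative shares of cells with an antiviral UMI, from 2000 UMIs per cell or no thinning, 44 moved beyond their interval and 5 did not, so these shares are tied to the depth of 1000 UMIs per cell. Leiden resolution 2 moved no count. No paired analysis was possible because each group is 1 library, and no library could be left out.

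Thinning each cell to 1000 UMIs left fewer members measured. Against late KIC the counts were then 9 of 21 in macrophages (antiviral 7, gamma-interferon 0), 3 of 5 in fibroblasts (antiviral 1, gamma-interferon 1) and 0 of 4 in epithelial or tumour cells (antiviral 0, gamma-interferon 0). Against late KPC they were 15 of 21 in macrophages (antiviral 11, gamma-interferon 2), 3 of 6 in fibroblasts (antiviral 3, gamma-interferon 0), 0 of 3 in epithelial or tumour cells (antiviral 0) and 0 of 0 in T or NK-like cells (antiviral 0). Against early KIC they were 1 in dendritic-like, 0 in T or NK-like, 9 of 22 in fibroblast-like, 3 in mesothelial-gene and 0 of 7 in epithelial cells. Against normal pancreas they were 0 of 20 in macrophage-like, 1 in dendritic-like, 1 in T or NK-like, 4 of 8 in fibroblast-like and 4 in mesothelial-gene cells.

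With at least 50 UMIs over both libraries, the counts against late KIC were 15 of 20 in fibroblasts (antiviral 9, gamma-interferon 3) and 15 of 21 in epithelial or tumour cells (gamma-interferon 2). Against late KPC they were 1 in T or NK-like cells (antiviral 1) and 12 of 18 in fibroblasts (antiviral 6, gamma-interferon 2). Against early KIC they were 1 in dendritic-like and 0 in T or NK-like cells, and against normal pancreas 2 in T or NK-like and 6 in mesothelial-gene cells. The stricter filter on cells gave 2 in dendritic-like cells against late KIC (antiviral 2), 5 against early KIC, and 1 gamma-interferon member in epithelial or tumour cells against late KPC.

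Using interferon genes in the clustering gave 5 in dendritic-like cells against early KIC. Clustering each library on its own gave 5 in macrophages against normal pancreas. CPM without mitochondrial, haemoglobin and acinar genes gave 0 there. The mean over cells gave 1 there, 3 in dendritic-like cells against late KIC (antiviral 2) and 6 against early KIC. Asking also for an interval above 1 gave 3 in epithelial or tumour cells against late KPC (antiviral 3), 1 in dendritic-like and 3 in mesothelial-gene cells against early KIC, and 0 in macrophages against normal pancreas. With Y-linked cells only, gamma-interferon counts against late KIC were 2 in macrophages and 3 in fibroblasts. Without cells of at least 8 antiviral UMIs, an alternative added after seeing the data, the counts were 2 in T or NK-like and 3 in epithelial or tumour cells against late KPC (antiviral 3), 2 in epithelial cells against early KIC and 1 in macrophages against normal pancreas. Adding the 4 dual members to the gamma-interferon group gave 3 in macrophages and 8 in fibroblasts against late KIC, and 7 in macrophages, 1 in T or NK-like cells and 8 in fibroblasts against late KPC. The cause of these shifts was not tested, apart from fewer members being measured.

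Own clustering gave no dendritic-like comparison with early KIC or normal pancreas. With Y-linked cells only, too few cells were left for dendritic-like cells against late KIC and for macrophage-like, dendritic-like, T or NK-like and mesothelial-gene cells against normal pancreas. Early KIC and late KPC had the lowest median depths, at 1776 and 1957.5 UMIs per cell.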

Other observations

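Neutrophil-like and red cell barcodes lay outside the 7 compartments described. Isg15 had 7.09 CPM in red cells of normal pancreas, 29.8 in late KIC, 433 in late KPfC and 185 in late KPC. Rsad2 had 42.5, 94.8, 239 and 136 CPM there, and the exonuclease gene Isg20 had 63.8, 146, 268 and 165 CPM. Late KPfC was the highest of the 4 libraries for each of these genes, although its Isg20 lead over late KPC lay within counting error (ratio 1.62, 0.977 to 2.86). Ifitm3, the most abundant member in macrophages, had 21.3, 62.3, 159 and 146 CPM, with late KPfC and late KPC alike (ratio 1.09, 0.625 to 2.04). In red cells many genes of all kinds stood higher in late KPfC than in late KIC, with 50.3% of those measured at least 2-fold above it. Against late KPC the balance was the reverse, with 9.46% of genes higher in late KPfC and 37.5% lower.

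In neutrophil-like cells of late KPfC (111 cells) the 26 antiviral genes without Ifitm3 and Bst2 summed to 594 CPM, against 96.9 CPM in late KPC (72 cells). Of 8 measured members, 5 were at least 2-fold higher in late KPfC, where 22% of all genes were. All 5 reached the minimum of 20 UMIs through late KPfC alone, which favoured such calls, and late KPC had at most 3 UMIs of any. The intervals of Isg15 (0.977 to 32.3) and Ifi35 (0.55 to 19.5) included 1. For Ifit1 and Oasl2, late KPC had 0 UMIs, which were set at 3. All 35 Ifit1 UMIs of late KPfC neutrophils lay in 2 cells, which held 42.1% of the UMIs of these genes. Ifitm3 ran the other way, with 711 CPM in late KPC against 369 CPM in late KPfC.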
